A study of Mus musculus with 12 samples.

Results

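Glucocorticoid-responsive genes were followed in mouse kidney over 12 whole-transcript expression arrays. The set has 10 members, of 19938 genes on the array with a probe set of their own. They were listed by name, with earlier results of these data known. They are the receptor gene Nr3c1 and the target genes Fkbp5, Tsc22d3, Zbtb16, Mt1, Mt2, Nfkbia, Cebpb, Cebpd and Errfi1. Each had exactly 1 probe set with a single gene symbol, and all 10 passed into the test, since no gene was left out for a low signal. The study gave wild-type mice FGF23, the phosphate-regulating hormone of bone, and compared them with mice that lack klotho, the co-receptor through which the kidney senses it. All mice were female. One group of 4 arrays came from C57BL/6 wild-type mice injected with recombinant FGF23 at 500 ng per g body weight (WT FGF23), the next from C57BL/6 wild-type mice injected with 100 µl saline (WT vehicle), and the last from KL null mice of the strain label 129/SvEv/C57BL/6 injected with 100 µl saline (KL null). Every injection was intraperitoneal, tissue was taken 1 hour after it, and the mice had been 5 to 8 weeks on standard diet. The protocol speaks of littermates, but genotype and strain label go together here and cannot be told apart. The series design calls the control and KL null mice untreated, whereas the sample labels record a saline injection. No group without an injection was analysed here, so an effect of the injection itself, which all 3 groups share, was not tested. The labels do not say whether the 4 replicates of a group were 4 mice, so the p-values reflect only how far these samples spread, which may be technical.

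Glucocorticoids, corticosterone in the mouse, leave the adrenal cortex in a daily rhythm and surge with stress. They cross the cell membrane and bind the glucocorticoid receptor, which is held in the cytoplasm by heat shock protein chaperones, then moves to the nucleus and switches target genes on or off, some of them within the hour. The kidney expresses the receptor in most of its cell types, and the mineralocorticoid-sensitive distal cells shield themselves from the hormone with the enzyme 11-beta-hydroxysteroid dehydrogenase 2. The same targets are also open to other inputs, such as zinc for the metallothioneins, NF-kB for Nfkbia and growth factors for Errfi1.

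Values are log2 signals after RMA normalization, on which a step of 1 doubles the signal, and levels of different genes were not set against each other. A gene passed when its limma p-value, adjusted by Benjamini-Hochberg over all 19938 genes, was below 0.05. With FGF23 against vehicle 0.0853% of all genes passed, and 3063 of the 19938 had an unadjusted p below 0.05. In KL null against vehicle these were 8.01% and 4241. They are the background for the counts in lists of genes given below. Kidney markers were present in all arrays but lower in KL null: the mean of 10 such genes was 11.35 to 11.45 in vehicle, 11.28 to 11.39 with FGF23 and 11.02 to 11.09 in KL null, without overlap of KL null with the others. In KL null 5 of the 10 fell by limma, Kap (-1.50, adjusted p = 1.05e-05), Lrp2 (-0.50, adjusted p = 0.00175), Podxl (-0.37, adjusted p = 0.027), Slc34a1 and Slc12a3, and the part of this in the KL null values of the members was not tested. Of all genes 4.44% fell in that comparison. Kl lay between 9.66 and 9.80 in the KL null arrays and between 10.44 and 10.74 in the wild-type arrays, without overlap. That is a 1.85-fold lower mean, and 9.72 is still well above the array medians of 6.15 to 6.29, so this probe set separates the groups but does not show absence of the transcript. The arrays differed in the standard deviation of their log2 values, from 2.166 to 2.281. WT FGF23 replicates 1 and 2 were lowest and KL null replicate 1 next, so several results of the members are given with and without these arrays. The other lists of genes were not refitted without them. In bulk kidney, a change in the number of cells of a type and a change of RNA per cell cannot be told apart.

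**Figure D1:**
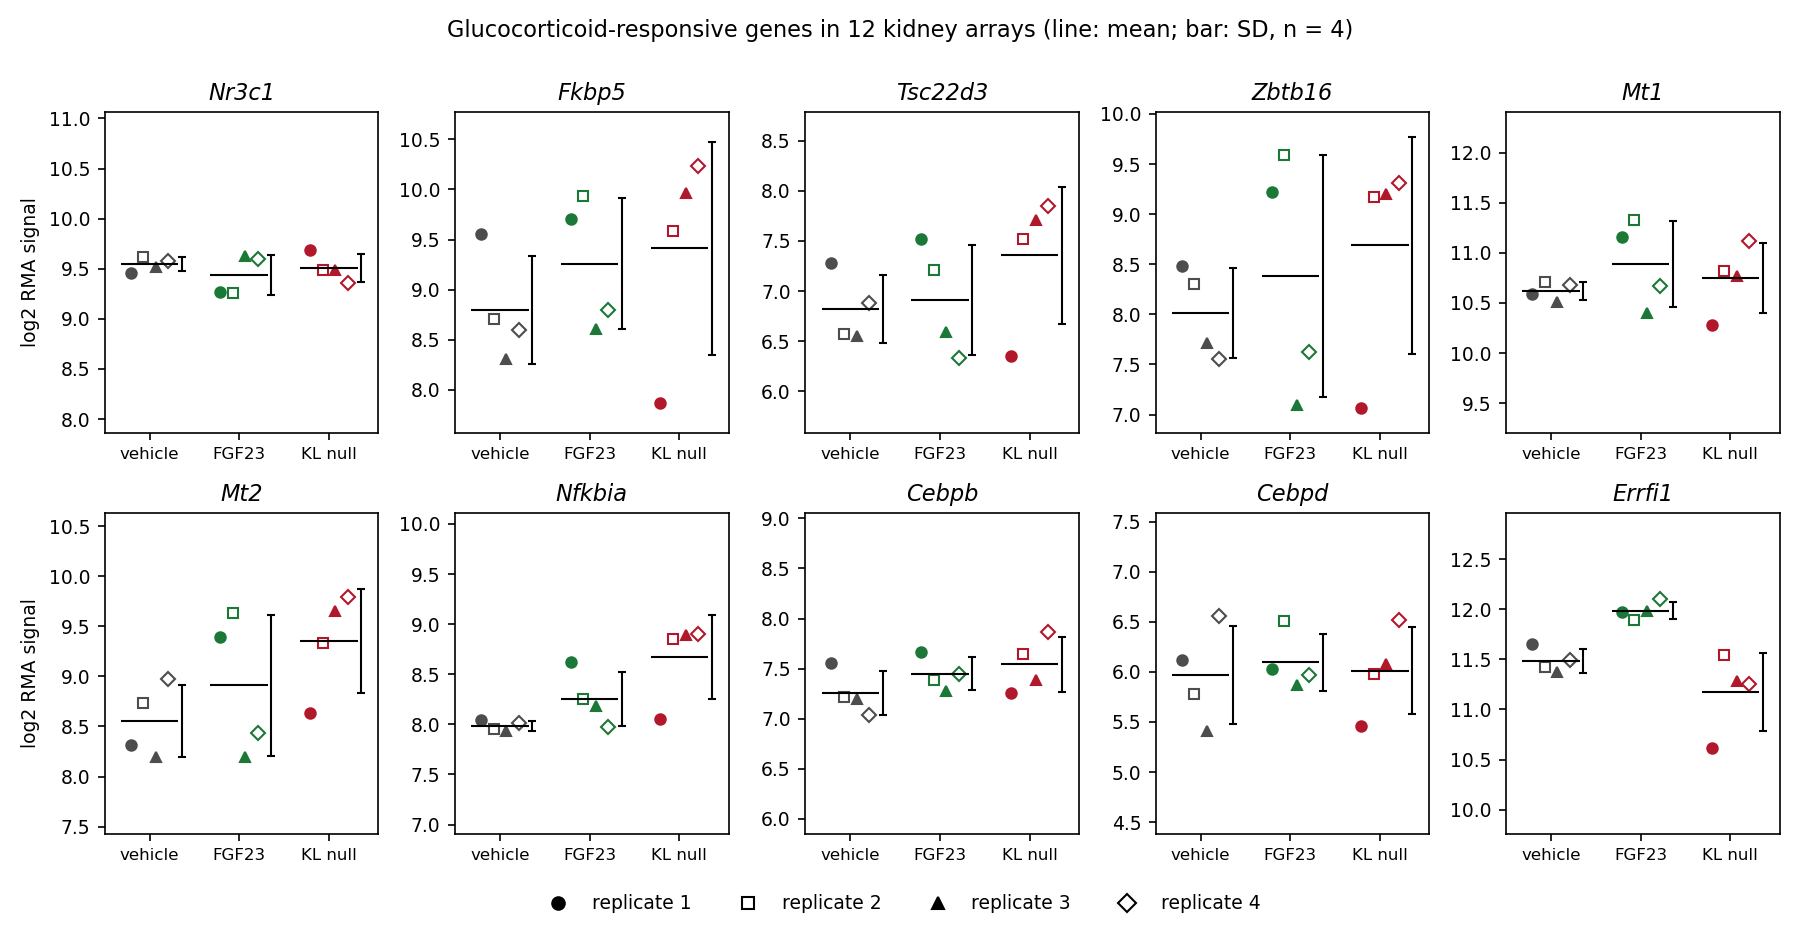
Log2 RMA signal (vertical axis, of the same span in each panel) of the 10 glucocorticoid-responsive genes in WT vehicle, WT FGF23 and KL null kidney, with a symbol for each array, a line at the group mean and a bar of 1 SD (n = 4). Fkbp5, Tsc22d3 and Zbtb16 spread over 1.19 to 2.49 log2 units within the FGF23 and KL null groups, while Nr3c1 spreads over 0.16 to 0.37 in any group.

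Nr3c1, which encodes the glucocorticoid receptor, was nearly level across the groups. It was at 9.46, 9.62, 9.52 and 9.58 in WT vehicle, at 9.27, 9.26, 9.63 and 9.60 in WT FGF23, and at 9.69, 9.49, 9.49 and 9.36 in KL null. The 3 groups overlapped. Against vehicle the log2 difference was -0.10 with FGF23 (95% confidence interval -0.32 to 0.11, adjusted p = 0.617) and -0.04 in KL null (-0.26 to 0.18, adjusted p = 0.895), both by limma. Its small variation had a pattern of its own, taken up with the pairs of genes: the 2 FGF23 arrays lowest in Nr3c1, replicates 1 and 2, were the 2 highest in Fkbp5.

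Fkbp5 encodes FKBP51, a co-chaperone that lowers the receptor's affinity for hormone and is among its most sensitive target genes. It was at 9.56, 8.71, 8.31 and 8.60 in WT vehicle, at 9.70, 9.93, 8.61 and 8.80 in WT FGF23, and at 7.87, 9.59, 9.96 and 10.23 in KL null. FGF23 replicates 1 and 2 lay above all 4 vehicle arrays and FGF23 replicates 3 and 4 lay among them. KL null held both the highest and the lowest array of all 12. The group means were 8.79 ± 0.54, 9.26 ± 0.65 and 9.41 ± 1.06 (SD, n = 4), and the differences from vehicle, 0.47 with FGF23 (95% interval -0.46 to 1.39, limma adjusted p = 0.598) and 0.62 in KL null (-0.31 to 1.54, adjusted p = 0.472), did not pass. Without WT FGF23 replicates 1 and 2 the first difference was -0.09.

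Tsc22d3 encodes GILZ, a leucine zipper protein that carries part of the anti-inflammatory action of glucocorticoids. It was at 7.28, 6.57, 6.55 and 6.88 in WT vehicle, at 7.52, 7.21, 6.59 and 6.33 in WT FGF23, and at 6.35, 7.52, 7.71 and 7.85 in KL null. As with Fkbp5, FGF23 replicates 1 and 2 were high, and KL null replicate 1 lay below every vehicle array while the other 3 KL null arrays lay above every one. The difference was 0.09 with FGF23 (95% interval -0.56 to 0.74, limma adjusted p = 0.897), or -0.36 without WT FGF23 replicates 1 and 2, and it was 0.54 in KL null (-0.11 to 1.19, adjusted p = 0.347).

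Zbtb16 encodes PLZF, a zinc finger repressor that glucocorticoids and progestins induce in many cells. It was at 8.48, 8.30, 7.71 and 7.55 in WT vehicle, at 9.22, 9.59, 7.10 and 7.62 in WT FGF23, and at 7.07, 9.17, 9.20 and 9.31 in KL null. Its FGF23 arrays thus fell on both sides of the vehicle range, 2 above it and 1 below it. The difference was 0.37 with FGF23 (95% interval -0.77 to 1.52, limma adjusted p = 0.741), or -0.65 without WT FGF23 replicates 1 and 2, and 0.68 in KL null (-0.47 to 1.82, adjusted p = 0.536). These wide intervals follow from the spread: the within-group SD of Zbtb16 was 0.97 log2 units, and 0.0552% of all genes had a larger one. For Fkbp5 it was 0.78 (0.13% of genes larger) and for Tsc22d3 0.54 (0.351%), against a median of 0.149 over all genes and 0.147 for Nr3c1.

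Mt1 and Mt2 encode metallothioneins, small cysteine-rich proteins that bind zinc, copper and cadmium and are induced both by metals, through the factor MTF1, and by glucocorticoids. The genes lie side by side on chromosome 8. The bases just before the annotated start of each are shown because the pair varied together from array to array, with capitals for the metal response element core, TGCGCNC or TGCACNC on either strand. They are printed on the plus strand from RefSeq, build GRCm38.p6, at chr8:94172368-94172617 for Mt2 and chr8:94178839-94179088 for Mt1, and both end at the base before the start.
Mt2: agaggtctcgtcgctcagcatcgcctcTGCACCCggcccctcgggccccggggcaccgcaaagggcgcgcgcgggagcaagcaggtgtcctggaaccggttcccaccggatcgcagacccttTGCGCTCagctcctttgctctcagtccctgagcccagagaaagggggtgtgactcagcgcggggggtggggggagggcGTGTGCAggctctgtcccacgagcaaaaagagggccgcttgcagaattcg
Mt1: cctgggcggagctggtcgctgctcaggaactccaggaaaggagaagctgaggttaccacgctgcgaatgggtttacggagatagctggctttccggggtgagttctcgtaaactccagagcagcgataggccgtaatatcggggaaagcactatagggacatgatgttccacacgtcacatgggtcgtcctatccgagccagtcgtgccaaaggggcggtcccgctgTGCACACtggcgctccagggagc
The Mt2 stretch held 3 matches and the Mt1 stretch 1. Of 32851 annotated starts, 12.5% had TGCGCNC and 10.4% had TGCACNC in the same 250 bases. The full palindromic glucocorticoid response element (the half-site and its inverted copy, 3 bases apart, without a mismatch) was in 0 of the 10 windows available for 7 members and in 0.00913% of all windows, and its half-site AGAACA was in 1 of the 10, a window of Tsc22d3, and in 16.1% of all. The 7 members are Fkbp5, Tsc22d3, Mt1, Mt2, Nfkbia, Cebpb and Errfi1. The windows reach 250 bases only, and a match or its absence there says nothing of binding.

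Mt1 was at 10.59, 10.71, 10.51 and 10.68 in WT vehicle, at 11.16, 11.33, 10.40 and 10.67 in WT FGF23, and at 10.28, 10.82, 10.77 and 11.12 in KL null. The vehicle arrays were tight, at 10.62 ± 0.09 (SD, n = 4), and the other groups straddled them. Mt2 was at 8.31, 8.73, 8.20 and 8.97 in WT vehicle, at 9.39, 9.63, 8.20 and 8.43 in WT FGF23, and at 8.63, 9.33, 9.65 and 9.79 in KL null. For Mt2 the same 2 FGF23 arrays and 3 of the 4 KL null arrays lay above all vehicle arrays. With FGF23 the differences were 0.27 for Mt1 (95% interval -0.13 to 0.67, limma adjusted p = 0.483) and 0.36 for Mt2 (-0.29 to 1.01, adjusted p = 0.561), and without WT FGF23 replicates 1 and 2 they were -0.09 and -0.24. In KL null the differences were 0.12 for Mt1 (-0.28 to 0.53, adjusted p = 0.784) and 0.80 for Mt2, a 1.74-fold higher mean (0.15 to 1.45, adjusted p = 0.133). Of the 12 genes of the wider list of metallothioneins and zinc response, which adds zinc transporters and Mtf1, 0 passed in either comparison with limma, where 1 gene with FGF23 and 3 in KL null had an unadjusted p below 0.05. The smallest p among non-members belonged to the zinc and manganese exporter Slc30a10 with FGF23 (log2 difference 0.45, adjusted p = 0.252) and the zinc importer Slc39a10 in KL null (0.42, adjusted p = 0.051).

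Nfkbia was the 1 member that passed in KL null. It encodes I-kappa-B-alpha, which holds NF-kB in the cytoplasm and is induced by NF-kB itself as well as by glucocorticoids. It was at 8.04, 7.95, 7.93 and 8.01 in WT vehicle, at 8.62, 8.25, 8.18 and 7.97 in WT FGF23, and at 8.05, 8.85, 8.89 and 8.90 in KL null. The 4 KL null arrays were above the 4 vehicle arrays, although KL null replicate 1 by only 0.01. Its bases before the start are shown for this difference, from RefSeq, build GRCm38.p6, at chr12:55492648-55492897 and on the minus strand, with capitals for the NF-kB site.
Nfkbia: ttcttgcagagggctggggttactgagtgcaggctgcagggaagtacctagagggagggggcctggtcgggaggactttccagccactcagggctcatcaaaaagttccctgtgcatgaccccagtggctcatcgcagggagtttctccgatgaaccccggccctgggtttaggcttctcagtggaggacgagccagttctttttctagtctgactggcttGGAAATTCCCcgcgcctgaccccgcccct
That site occurred in the same stretch of 3.90% of all 32851 starts. Nfkbia rose 1.61-fold in KL null, from 7.98 ± 0.05 to 8.67 ± 0.42 (SD, n = 4; log2 difference 0.69, SE 0.17, limma adjusted p = 0.0219). The limma call was lost without WT vehicle replicate 1 (adjusted p = 0.0511) or 3 (0.0667), without KL null replicate 2 (0.0689), 3 (0.078) or 4 (0.0626), and in a model without moderation (0.0834). The log2 difference stayed between 0.61 and 0.90 in all 25 alternatives, many of which, such as those of moderation or probe set rule, could not change it. With FGF23 the difference was 0.27 (95% interval -0.09 to 0.64, limma adjusted p = 0.436), and 0.09 without WT FGF23 replicates 1 and 2.

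Among 15 measured genes of the NF-kB pathway, Nfkbia among them, 4 rose and 1 fell in KL null (median log2 difference 0.09, against 0.03 over all genes), and 8.01% of all genes passed in that comparison. The others that rose were Nfkbiz, an atypical inhibitor of NF-kB (0.61, adjusted p = 0.00162), Tnfaip3, the deubiquitinase A20 that ends NF-kB signalling (0.41, adjusted p = 0.0104), and Birc3, an inhibitor of apoptosis (0.63, adjusted p = 0.0183), and the kinase gene Ikbkb fell. With FGF23 0 of the 15 passed by limma, and 3 had an unadjusted p below 0.05. Of 14 genes that glucocorticoids are known to repress, 2 rose in KL null, the adhesion molecule Vcam1 (0.83, adjusted p = 0.000486) and the chemokine Ccl2 (0.47, adjusted p = 0.0205), and 0 fell. With FGF23 0 of the 14 passed by limma, and 4 had an unadjusted p below 0.05. In each comparison 12 had a positive difference, against 58.7% of all genes with FGF23 and 56.1% in KL null. The list mean was 5.365 to 5.60 in vehicle, 5.65 to 5.73 with FGF23 and 5.67 to 5.94 in KL null, highest in replicate 1. Neither group overlapped vehicle. These means lay below the array medians of 6.15 to 6.29, and no gene of the list was tested against background. KL null replicate 1 was also the KL null array of lowest SD, and the part of array SD in these means was not tested. Of 15 immune cell markers 3 rose in KL null by limma, Lyz2 (1.71, adjusted p = 0.0011), Itgam (0.88) and Cd68 (1.06), and Csf1r fell. The other 11 did not pass, among them the neutrophil markers S100a8, S100a9 and Ly6g. The mean of that list was 6.22 to 6.72 in vehicle and 6.76 to 6.91 in KL null, with no overlap. In KL null replicate 1, the low array for Nfkbia, it was 6.76, against 6.82 to 6.91 in the other KL null arrays. The markers that rose were lowest of the group in that array: Cd68 was at 6.29, within the vehicle range of 5.85 to 6.52, against 7.36 to 8.02, Lyz2 at 8.56 against 9.48 to 9.83, and Itgam at 5.68 against 6.08 to 6.34. The immune marker H2-Aa, which did not pass in KL null (0.69, limma adjusted p = 0.065), was highest of the group in that array, at 10.29 against 10.15 to 10.20. The part of immune cells in the Nfkbia difference was not tested.

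Cebpb and Cebpd encode C/EBP-beta and C/EBP-delta, transcription factors of the acute phase response that both cytokines and glucocorticoids induce. Cebpb was at 7.56, 7.22, 7.20 and 7.04 in WT vehicle, at 7.67, 7.39, 7.28 and 7.45 in WT FGF23, and at 7.26, 7.65, 7.39 and 7.87 in KL null, with all groups overlapping. Cebpd was at 6.12, 5.78, 5.41 and 6.56 in WT vehicle, at 6.03, 6.51, 5.87 and 5.97 in WT FGF23, and at 5.46, 5.98, 6.08 and 6.52 in KL null. The highest and the lowest Cebpd signal of the 12 arrays were both in vehicle. The differences from vehicle were 0.19 (95% interval -0.10 to 0.49) and 0.29 (-0.01 to 0.58) for Cebpb with FGF23 and in KL null, with limma adjusted p of 0.492 and 0.247. For Cebpd they were 0.13 (-0.37 to 0.63, adjusted p = 0.803) and 0.04 (-0.46 to 0.54, adjusted p = 0.951). Of 6 measured genes of the family 1 passed with FGF23, Ddit3, which encodes the stress factor CHOP (0.57, adjusted p = 0.047), and 0 passed in KL null by limma, where 1 had an unadjusted p below 0.05.

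Errfi1 stood apart from the other members. It encodes MIG6, a cytoplasmic inhibitor of the EGF receptor that growth factor signalling and glucocorticoids both induce. It was at 11.65, 11.42, 11.37 and 11.49 in WT vehicle, at 11.97, 11.89, 11.98 and 12.10 in WT FGF23, and at 10.62, 11.54, 11.28 and 11.25 in KL null. All 4 FGF23 arrays were above all 8 others, and the FGF23 replicates 1 and 2 that were high for Fkbp5 were not high among them. The stretch before the second of its annotated starts is shown because it held the palindromic cAMP response element TGACGTCA, in capitals, a sequence found in 1.55% of all windows. It is printed from RefSeq, build GRCm38.p6, plus strand, chr4:150854950-150855069.
Errfi1: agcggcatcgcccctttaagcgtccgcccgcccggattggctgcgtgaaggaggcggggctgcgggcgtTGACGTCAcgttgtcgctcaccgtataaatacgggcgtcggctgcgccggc
With FGF23 Errfi1 was 1.42-fold higher than with vehicle, at 11.98 ± 0.09 against 11.48 ± 0.12 (log2 difference 0.50, 95% interval 0.19 to 0.82), which did not pass over all genes by limma (adjusted p = 0.241). The exact permutation test of this gene alone, two-sided, gave p = 0.0286, the smallest that 4 against 4 arrays allow. In KL null the mean was 0.31 lower (log2 difference -0.31, -0.62 to 0.00, adjusted p = 0.242). Between FGF23 and KL null directly, where treatment, genotype and strain label all differ, Errfi1 was 1.76-fold higher with FGF23 (log2 difference 0.81, SE 0.15, limma adjusted p = 0.00311), and it passed in all 25 alternatives, the last of them the exact permutation test of the gene alone. It was the 1 member of 10 to pass in that comparison, in which 12% of all genes did and 5.25% were higher and 6.72% lower with FGF23. The FGF23 and KL null arrays of Errfi1 did not overlap, as in 16.1% of all genes, and 3 of the 10 members had a positive difference, against 59.8% of all genes. Of 11 genes that restrain the EGF receptor, Errfi1 among them, 2 were higher and 1 lower with FGF23 than in KL null. The Ras-ERK inhibitor Spry2 had the smallest p (0.64, adjusted p = 0.00209).

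**Figure D2:**
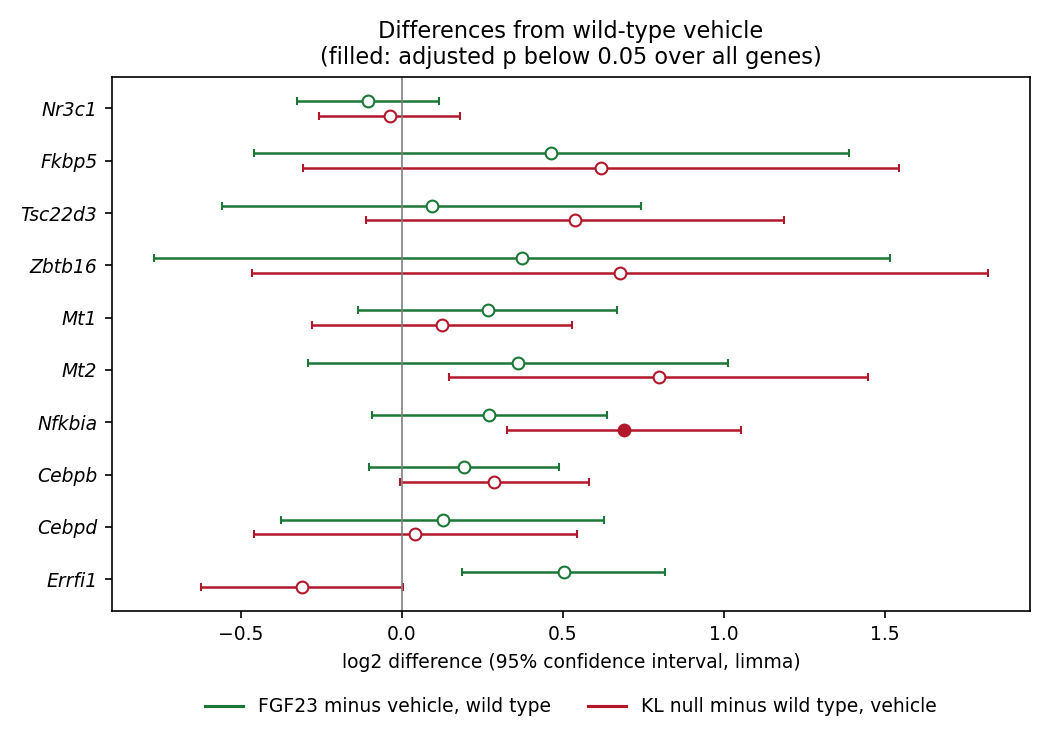
Log2 differences from WT vehicle (horizontal axis) with 95% confidence intervals from limma for the 10 members, FGF23 in green and KL null in red, with filled points where the adjusted p was below 0.05. Nfkbia in KL null is the 1 filled point, and the intervals of Zbtb16 and Fkbp5 are the widest.

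Over the set, 0 of 10 members passed with FGF23 by limma, in a comparison where 0.0853% of all genes did (0.0802% higher and 0.00502% lower). Of the members 1, Errfi1, had an unadjusted p below 0.05, as did 3063 of all 19938 genes. Positive differences were found for 9 of 10 members, against 58.7% of all genes, and the median member difference was 0.27, against 0.04 over all genes. Without WT FGF23 replicates 1 and 2, 6 of these 9 differences were negative and 0.0401% of all genes passed. In 1 member, Errfi1, the 4 FGF23 arrays were clear of the 4 vehicle arrays, as in 7.01% of all genes. In KL null 1 of 10 members passed, against 8.01% of all genes, which is close to that background (3.58% of all genes rose and 4.44% fell), and 8 had a positive difference, against 56.1% (median 0.41, against 0.03 over all genes). In 1 member, Nfkbia, KL null and vehicle arrays did not overlap, as in 13.8% of all genes. The FGF23 and KL null comparisons share the vehicle arrays.

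The number of members that passed in KL null depended on single arrays: it was 0 without WT vehicle replicate 1 or 3 or KL null replicate 2, 3 or 4, and it was highest without KL null replicate 1. It was 2 without WT FGF23 replicates 1 and 2, where Mt2 (adjusted p = 0.0448) passed beside Nfkbia and 8.76% of all genes did. KL null replicate 1 was the lowest KL null array for 9 of the 10 members, all but Nr3c1, against 26.4% of all genes. That count was made after the pattern had been seen and is given without a test. For Nr3c1 this array was the highest. Without it 4 members passed in KL null against vehicle, in a fit where 8.67% of all genes did: Fkbp5 at a log2 difference of 1.13 (adjusted p = 0.045), Tsc22d3 at 0.87 (0.0415), Mt2 at 1.04 (0.0464) and Nfkbia at 0.90 (0.000466). Zbtb16 reached 1.22 but did not pass (0.136). Without any 1 of the other 11 arrays at most 1 member passed. In FGF23 against KL null, Tsc22d3 (-0.78, limma adjusted p = 0.049) and Nfkbia (-0.63, adjusted p = 0.00457) also passed without KL null replicate 1, beside Errfi1. In that fit 2794 of all 19938 genes passed, against 2386 with all arrays. The array was also lowest among the KL null arrays for Lcn2, the injury marker lipocalin 2, at 7.87 against 9.16 to 10.05, and its Kl signal, 9.66, was within the range of its group.

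**Figure D3:**
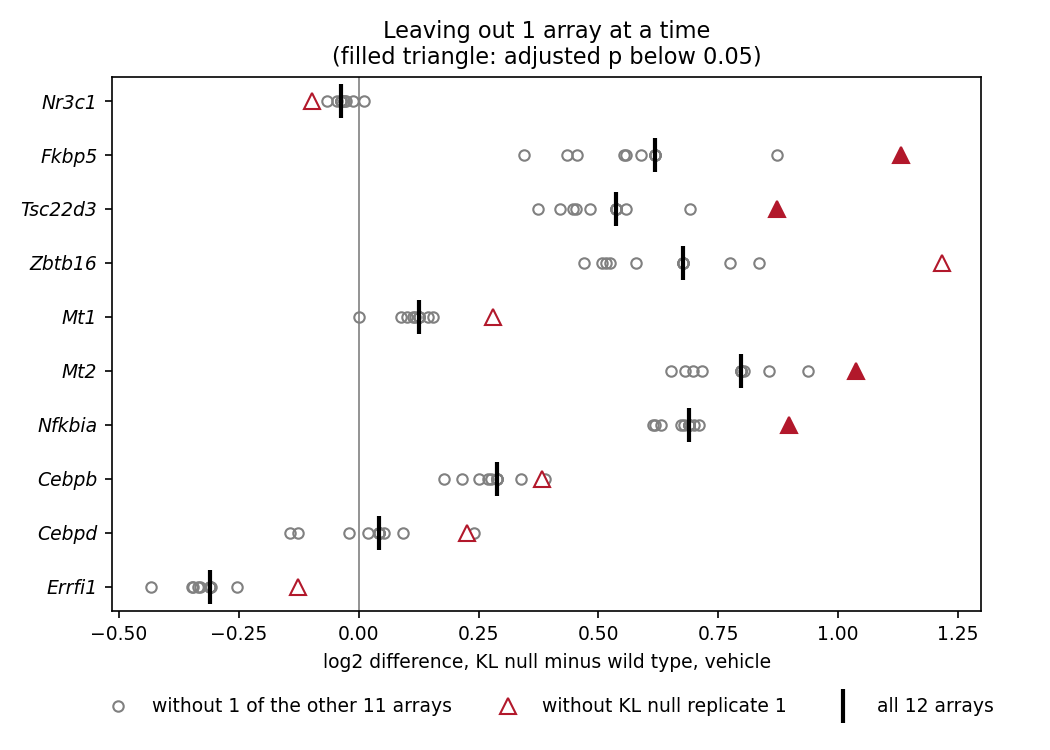
Log2 difference of KL null from wild type (horizontal axis) for each member with all 12 arrays (bar), without KL null replicate 1 (triangle, filled where the adjusted p was below 0.05) and without each of the other 11 arrays (circles). The triangles of Fkbp5, Tsc22d3, Zbtb16, Mt1, Mt2 and Nfkbia lie to the right of all other points of their gene.

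How far the members varied together was measured after the mean of its group was subtracted from every value, so that differences between groups play no part. Over the 12 arrays Fkbp5 and Tsc22d3 had a Pearson r of 0.943 (permutation p = 0.00246, adjusted p = 0.0212 over the 45 pairs of members) and a Spearman rho of 0.895 (permutation p = 0.00225, adjusted 0.0326). Tsc22d3 and Nfkbia had r = 0.927 and rho = 0.951 (both permutation p = 5e-05, adjusted p = 0.00225). Mt1 and Mt2 had r = 0.940 and rho = 0.930 (permutation p = 0.0004 and 0.00429, adjusted p = 0.006 and 0.0326). Fkbp5 and Zbtb16 had r = 0.920 and rho = 0.860 (permutation p = 0.00026 and 0.00041, adjusted p = 0.00585 and 0.00923). These permutations moved values only within groups, were two-sided and numbered 100000.

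Of the 45 pairs, 36 had a positive r, the 9 negative ones were all those with Nr3c1, and 11 pairs passed by r and 10 by rho. The receptor gene passed by r only with Fkbp5, Tsc22d3 and Zbtb16, and was least opposed to Errfi1 (r = -0.312, rho = -0.032). Against Fkbp5 it had r = -0.845 and rho = -0.792 (permutation p = 0.00279 and 0.00842, adjusted p = 0.0212 and 0.0421). Against Tsc22d3 it had r = -0.873 and rho = -0.827 (permutation p = 0.00382 and 0.0135, adjusted p = 0.0212 and 0.0521), and against Zbtb16 r = -0.903 and rho = -0.900 (permutation p = 0.00861 and 0.00435, adjusted p = 0.0352 and 0.0326). Errfi1 had the loosest ties, with 0 of its 9 pairs passing by permutation of r or rho, and with 0 of 9 at an unadjusted p below 0.05. When the 2 arrays farthest from the median of the first gene were left out, 0 of 45 pairs passed after adjustment. In the pairs given above r was then 0.888 for Fkbp5 with Tsc22d3, 0.893 for Fkbp5 with Zbtb16, 0.890 for Mt1 with Mt2 and 0.813 for Tsc22d3 with Nfkbia. For Nr3c1 it was -0.779 with Fkbp5, -0.855 with Tsc22d3 and -0.834 with Zbtb16. Over all pairs the median r went from 0.650 to 0.503, and 33 were positive. Some changed sign, such as Mt1 with Errfi1, from 0.355 to -0.237. The arrays left out were KL null replicate 1 and either an FGF23 array or KL null replicate 4 in the pairs named here. Whether the calls were lost through these arrays or through the smaller number of arrays was not tested. The SD of the array's log2 values had r from -0.282 with Mt2 to 0.410 with Errfi1 after the same centring, and with it removed as well, an alternative chosen after seeing the data, 23 pairs passed.

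**Figure D4:**
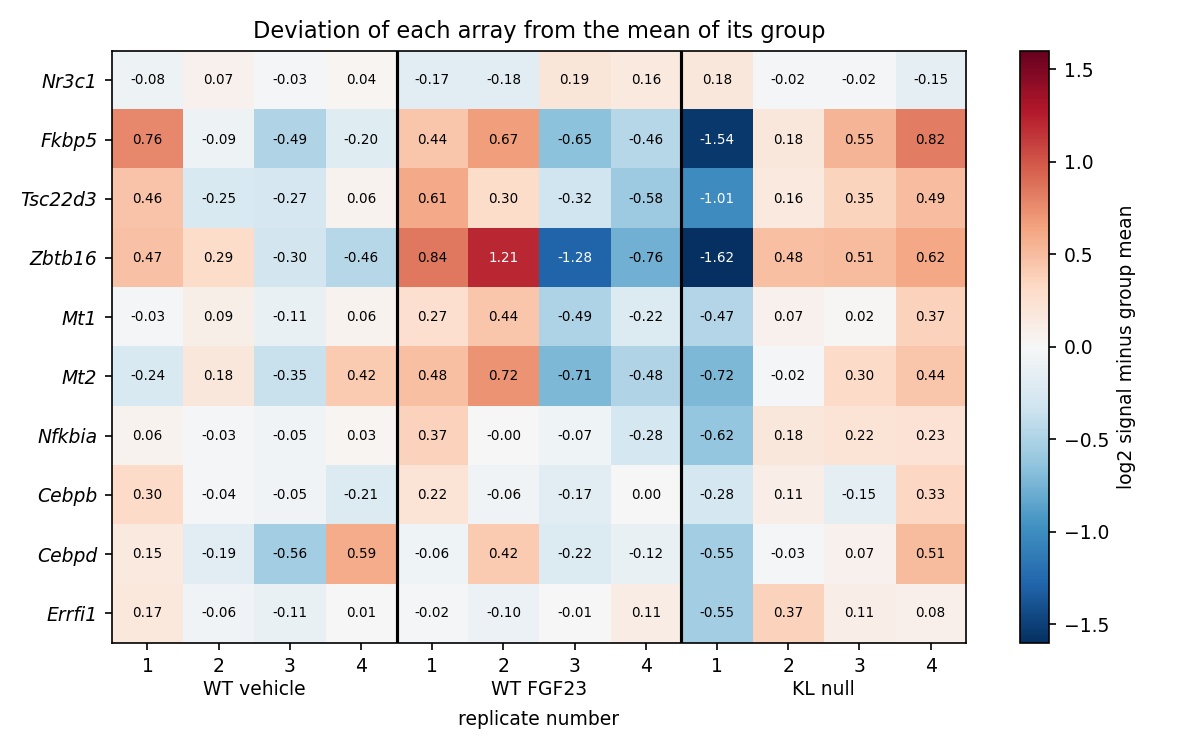
Deviation of each array from its group mean in log2 units (colour and number) for the 10 members, in WT vehicle, WT FGF23 and KL null replicates 1 to 4. KL null replicate 1 is low for every member but Nr3c1, with Fkbp5 at -1.54 and Zbtb16 at -1.62, and FGF23 replicates 1 and 2 are high for Zbtb16, at 0.84 and 1.21.

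The genes whose centred profile was most like that of Fkbp5 over the 12 arrays were Lpin1, which encodes the phosphatidate phosphatase lipin 1 (r = 0.977), Ccn2, connective tissue growth factor (0.960), the ubiquitin ligase gene Hecw2 (0.958), Arhgef3 (0.948) and Trp53bp2 (0.945), with Tsc22d3 sixth. Most like Mt1 were Lce1f (0.960), the hypoxia-inducible factor subunit gene Hif3a (0.953), Susd3 (0.945), the proline dehydrogenase gene Prodh (0.941) and Mt2 (0.940). Lce1f lay at 3.57 to 4.22 and Hif3a at 4.87 to 5.88, below the array medians of 6.15 to 6.29, and neither was tested against background. The r values here are descriptions of the highest among all named genes, without a test.

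Other genes known to be induced by glucocorticoids were held in a list of 35, of which 34 were measured and none is a member. With FGF23 1 of the 34 rose, Zfp36, an RNA-binding protein that destabilises inflammatory transcripts (1.15, limma adjusted p = 0.0127), and 33 did not pass. In KL null 3 rose and 2 fell, where 3.58% of all genes rose and 4.44% fell. An unadjusted p below 0.05 was found for 7 of the 34 with FGF23 and for 13 in KL null. Of all 19938 genes 3063 and 4241 had such a p. Lcn2 rose by 2.39 (adjusted p = 0.000486) and Ptgds, a prostaglandin D synthase, by 0.66 (adjusted p = 0.00451), while Mfsd2a, a lysophospholipid transporter induced by fasting in liver, fell by 2.30 (adjusted p = 0.000195). The mean of the 34 genes followed the members from array to array: it was 8.46, 8.36, 8.28 and 8.38 in WT vehicle, 8.59, 8.61, 8.44 and 8.43 in WT FGF23, and 8.10, 8.62, 8.64 and 8.63 in KL null. KL null replicate 1 was again the lowest of the 12 arrays and FGF23 replicates 1 and 2 the highest of their group. Gene by gene, KL null replicate 1 was the lowest of its group in 27 of the 34, against 26.4% of all genes, and FGF23 replicates 1 and 2 were above replicates 3 and 4 in 16, against 36.4%. Both held for 15 of the 34 and for 5.15% of all genes, a count chosen after the pattern had been seen and given without a test. Zfp36 did not follow it in FGF23, with 7.93 and 7.54 in replicates 1 and 2 and 8.07 and 8.26 in replicates 3 and 4.

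Genes for the receptor, its chaperones and steroid access numbered 15 measured of 18. In KL null 4 fell and 1 rose, where 4.44% of all genes fell and 3.58% rose, and the median log2 difference was -0.10. The chaperone genes Fkbp4, which encodes FKBP52, the counterpart of FKBP51 that favours hormone binding (-0.53, adjusted p = 0.00207), Hsp90aa1 (-0.39, adjusted p = 0.0137), Stip1 (-0.39, adjusted p = 0.0183) and Hspa8 fell, and the efflux pump gene Abcb1b rose (0.61, adjusted p = 0.0193). The dehydrogenase gene Hsd11b2, named outside the rule for the role given above, did not pass in KL null (10.18 ± 0.16 in vehicle and 10.04 ± 0.09, adjusted p = 0.469). With FGF23 0 of the 15 passed by limma, 1 had an unadjusted p below 0.05, and the smallest p belonged to Abcb1a (-0.34, adjusted p = 0.276).

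Several other marker lists moved with these arrays, and their part in the values of the members was not tested. In KL null 3.58% of all genes rose and 4.44% fell, and 4241 of 19938 had an unadjusted p below 0.05. With FGF23 0.0802% rose and 0.00502% fell, and 3063 had such a p. Of 16 circadian clock genes 8 rose and 2 fell in KL null, among them Cry2 (0.94, adjusted p = 0.00125), Per3 (0.93) and Bhlhe41 (0.99), and the mean of the list was 7.83 in KL null replicate 1 and 8.15 to 8.28 in the others. With FGF23 1 of the 16 rose, Bhlhe40 (0.84, adjusted p = 0.047), 13 had a positive difference and 10 an unadjusted p below 0.05. The list mean was 7.97 to 8.19 with FGF23 and 7.69 to 7.85 in vehicle, without overlap. Of 10 tubule injury markers 6 rose in KL null, with Timp1 first (1.24, adjusted p = 2.78e-06), and the mean was 7.57 in KL null replicate 1 and 7.87 to 8.20 in the others. Of 14 adrenal gland markers 0 passed with FGF23 by limma and 4 had an unadjusted p below 0.05. Their mean was 4.91 in both FGF23 replicates 1 and 2 and 4.63 and 4.69 in replicates 3 and 4, against 4.54 to 4.68 in vehicle. Cyp11b1, the enzyme of the last step to corticosterone, was at 5.20 and 5.19 in FGF23 replicates 1 and 2, at 4.60 and 4.83 in replicates 3 and 4, and at 4.21 to 4.71 in vehicle (adjusted p = 0.245). In KL null 1 adrenal marker rose, Hsd3b1 (0.60, limma adjusted p = 0.0124), at 3.24 to 3.87 against 2.73 to 3.10 in vehicle. The list mean was 4.54 to 4.85. These levels and those of Cyp11b1 lay below the array medians of 6.15 to 6.29, and none was tested against background. FGF23 replicates 1 and 2 were also the arrays of lowest SD, and the part of this in their adrenal values was not tested. Of 7 measured adipocyte genes and 3 blood genes 0 passed in either comparison by limma, and in each list 1 gene had an unadjusted p below 0.05 in each comparison.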

How the data were processed

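RNA of 12 kidney samples, 4 per group, was hybridised to Affymetrix whole-transcript arrays, per the labels' protocols. The authors deposited log2 values per probe set, and the submitters' processing notes name RMA and Partek 6.2; background settings are not given in the sources used here. RMA compresses the differences of dim probe sets, and without scanner files no probe set was tested against background. Of 28853 probe sets 21789 had 1 gene symbol, 1621 several and 5443 none, by the platform annotation, and 21698 of the first matched the RefSeq gene table of GRCm38.p6. Each of 19938 genes was represented by its probe set of highest mean. The number of arrays limits the precision. 0 array columns were left unused and 0 pairs of arrays were identical.

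A limma 3.58.1 fit in R 4.3.3 (lmFit, eBayes, two-sided) with 3 group means over all 12 arrays gave differences, intervals and p-values, and was tested on simulated data. Within-group correlations were permuted within groups with numpy 2.4.6, and exact permutation tests were made with scipy 1.17.1. Alternatives covered scaling, moderation, weights, covariates, filters, probe set rules, replicate numbers and left-out arrays. Named genes are the 10 members, up to 3 passing non-members of smallest p per list and comparison (1 where none passed), and the 5 genes most like Fkbp5 and Mt1 without predicted or unnamed loci. Further genes are marked as outside this rule, apart from Kl, given as a check of the labels, and list members named beside a count. The members, the 14 lists (198 genes, 182 measured) and the alternatives were chosen with earlier results of these data known.

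Replicate numbers were checked as a pairing by the correlation of same-numbered arrays after group means were removed. It was 0.143 to 0.259 in all 4 pairs of FGF23 with KL null, so by this measure alone, and not by any label, the numbers pair these arrays, and 6 of the 8 arrays correlated best with their own number. It fell below 0.1 in at least 2 of 4 pairs in the other comparisons.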

Additional observations from a re-analysis of the deposited data

Results flagged for a closer look

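In 2 of the 30 sets of 4 arrays (10 members in 3 groups) 1 array lay far from the other 3, by a gap that took up more of the group's range than Dixon's critical value at the 95% level. Chance alone flags about 1 in 20 such sets. Both were in KL null, and in both replicate 1 was the low array: the gap was 0.938 of the range for Zbtb16 (7.07 against 9.17 to 9.31) and 0.941 for Nfkbia (8.05 against 8.85 to 8.90).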

How the results depend on the processing

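Of 750 recalculated member differences (30 differences under 25 alternatives each), 697 kept their direction and their side of the threshold, 10 newly passed, 6 lost the call and 37 changed sign. Many alternatives could not move a difference, only its p-value, so its direction was fixed in advance. They were the changes of moderation, gene filter and probe set rule (each member has 1 probe set), and the replicate block. Also among them were the fit of only the 2 groups compared, the exact test and leaving out arrays of the group not compared. The 6 lost calls are all those of Nfkbia in KL null given above. Leaving out single arrays gave 0 to 4 members called in KL null against vehicle and 1 to 3 in FGF23 against KL null. Other settings gave 0 (no moderation), 2 (array quality weights) and 2 (without WT FGF23 replicates 1 and 2) in the first and 3 (array quality weights) in the second. With FGF23 against vehicle 1 member, Errfi1, passed the unadjusted exact permutation test, and its adjusted p in the refits was 0.0766 to 0.996.

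Over all genes the 17 calls with FGF23 became 5 with arrays centred on their median, 9 with quantile normalization, 2 without moderation, 11 with the array SD as a covariate, 6 with every probe set, 8 without WT FGF23 replicates 1 and 2, 7 with only the 2 groups compared and 4 to 14 with 1 array left out. In KL null 1598 calls became 2852 with array quality weights and 828 to 1728 with 1 array left out, and median centring moved the split from 713 higher and 885 lower to 453 and 1369. In FGF23 against KL null 2386 calls became 3333 with array quality weights, 944 without WT FGF23 replicates 1 and 2 and 1218 to 2794 with 1 array left out. With the replicate block they were 6, 1548 and 2396 in the 3 comparisons, and Nfkbia in KL null had an adjusted p of 0.0373; the block changed no member's call. In the comparisons with vehicle the samples share only a number, and 1 of 8 arrays correlated best with its own number in each. The 11 correlated pairs became 0 without the 2 farthest arrays and 23 with the array SD also removed.

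None of the differences that changed sign had passed. With FGF23 against vehicle, leaving out WT FGF23 replicates 1 and 2 gave 0.07 for Nr3c1, -0.09 for Fkbp5, -0.36 for Tsc22d3, -0.65 for Zbtb16, -0.0875 for Mt1, -0.24 for Mt2 and -0.0475 for Cebpd, and array quality weights gave -0.14 for Tsc22d3 and -0.024 for Zbtb16. In KL null against vehicle Nr3c1 was 0.0116 with quantile normalization, and Cebpd -0.0125 with median centring and -0.033 with quantile normalization. In FGF23 against KL null array quality weights gave 0.0243 for Nr3c1, -0.0313 for Mt1 and -0.056 for Cebpd, and without WT FGF23 replicates 1 and 2 they were 0.11, -0.21 and -0.09. With 1 array left out the ranges that crossed 0 were, with FGF23, -0.11 to 0.29 for Tsc22d3, -0.03 to 0.80 for Zbtb16 and -0.0583 to 0.33 for Cebpd, in KL null -0.0983 to 0.0117 for Nr3c1 and -0.14 to 0.24 for Cebpd, and in FGF23 against KL null -0.67 to 0.12 for Fkbp5, -0.84 to 0.12 for Zbtb16, -0.0133 to 0.31 for Mt1, -0.19 to 0.0142 for Cebpb and -0.10 to 0.26 for Cebpd. The cause was not tested. Signal over background was not measured here, and 4 arrays a group limit what can be detected.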
